A study of Homo sapiens with 9 samples.

Results

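The 50 genes described here encode cytochrome P450 enzymes, their electron donor POR, and the conjugating and related enzymes that modify drugs and endogenous lipids. They are listed by name, with no threshold on a measured value, although the list was drawn up with earlier results of these data known. Each was matched to 1 Ensembl identifier, and together they form 50 of the 62703 gene identifiers listed for every library. All cells were HepG2, a single established human hepatocellular carcinoma line, so no other liver cell type and no animal was sampled. The 9 libraries of RNA sequencing fell into 3 groups of 3: untreated control cells, cells given eliglustat at 20 µM, and cells given eliglustat at 30 µM, both for 72 h. Eliglustat is an oral inhibitor of glucosylceramide synthase, the enzyme that starts glycosphingolipid synthesis, and the labels give no genetic change in any group. No culture time is given for the controls, and the replicates are not said to be separate cultures, so every p-value reflects the spread among these libraries alone, which may be technical.

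Cytochrome P450s are heme enzymes that insert oxygen into their substrates, and those of the endoplasmic reticulum receive electrons from NADPH through POR. Families 1 to 3 hold most of the enzymes that clear drugs, family 4 acts mainly on fatty acids, and others work on vitamins, sterols and bile acids. The conjugating enzymes then attach a polar group: UDP-glucuronosyltransferases (UGT) attach glucuronic acid, sulfotransferases (SULT) a sulfate, glutathione S-transferases (GST, MGST) glutathione, and N-acetyltransferases (NAT) an acetyl group. In liver these genes are driven by nuclear receptors and by the aryl hydrocarbon receptor (AHR). Eliglustat itself is cleared by CYP2D6 and, to a lesser extent, by CYP3A enzymes. HepG2 cells are known for low levels of many of the P450s that are abundant in hepatocytes.

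Counts assigned to genes ranged from 21103757 to 26782810 per library. All 16 hepatocyte markers exceeded 10 CPM (counts scaled to a common library size, with TMM factors), and their summed level was 37913 to 39136 CPM in controls, 42489 to 43162 at 20 µM and 46330 to 46929 at 30 µM. By gene, 9 rose and 3 fell at 20 µM (17.2% and 16.9% of all genes tested). At 30 µM only 5 rose and 8 fell (29.5% and 31.3% of all genes), with a median log2 change of -0.083. The rising sum therefore does not describe most of these markers at 30 µM. PTPRC and MARCO of the leukocyte list, COL1A2 and DCN of the stellate list, CLEC4G of the endothelial list, and CFTR and AQP1 of the biliary list were at 0 in every library. Other genes of these lists were expressed. An average of at least 10 CPM was reached by 5 of 8 biliary, 1 of 8 stellate, 1 of 8 leukocyte and 0 of 6 endothelial genes. The summed leukocyte list, 7 of whose 8 genes averaged under 1 CPM, was 450 to 496 CPM in controls, 437 to 474 at 20 µM and 636 to 667 at 30 µM. The biliary list summed to 3867 to 4073, 3595 to 3716 and 4370 to 4585 CPM in that order. The stellate list summed to 34.5 to 41.4, 35.0 to 36.7 and 23.8 to 26.1 CPM, and the endothelial list to 4.49 to 5.54, 4.82 to 6.34 and 4.05 to 4.91 CPM. The part of these shifts in the results below was not tested. In bulk RNA, fewer cells that express a gene and less RNA per cell cannot be told apart. Control replicate 1, 20 µM replicate 3 and 30 µM replicate 3 deviated from their group means together, with correlations across genes of 0.33 to 0.35, so counts of genes are also given without these 3 libraries.

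At 20 µM the enzyme genes moved mostly upward, whereas at 30 µM more of them fell than rose. Of the 50 genes, 39 had enough counts to be tested and 11 did not. At 20 µM against control, 22 rose, 1 fell and 16 did not pass an adjusted p of 0.05, which is read against 34.2% of all 17623 genes tested that were called (17.2% rose and 16.9% fell). The median log2 change of the 39 was 0.25, and that of all tested genes 0.0087. At 30 µM against control, 14 rose, 17 fell and 8 did not pass, against 60.8% of all genes called (29.5% rose and 31.3% fell). Their median log2 change was -0.12, and that of all genes -0.036. Scaling by library size alone shifted the median of all genes at 30 µM by -0.21, and the split there became 9 rose and 22 fell, where 20.0% of all genes rose and 45.5% fell under that scaling.

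Between the doses, 9 of the 39 were higher and 21 were lower at 30 µM, and 9 did not pass, against 57.0% of all genes called (28.0% higher and 28.9% lower). The median log2 difference was -0.40, and that of all genes -0.029. Without the 3 libraries that deviated together, 20 rose and 1 fell at 20 µM, 13 rose and 16 fell at 30 µM, and 9 were higher and 17 lower between the doses. Of all 17674 genes tested in that fit, 2636 rose and 2780 fell at 20 µM, and 4877 rose and 5055 fell at 30 µM. Between the doses, 4694 of them were higher and 4641 lower. No library of one group reached into the range of the other for 28 of the 39 genes at 20 µM (44.5% of all genes), 32 at 30 µM (65.0%) and 33 between the doses (61.1%). The comparisons with control share the control libraries, so each gene's values are set side by side below and are not 2 independent results. The tested P450s gave 12 rises and 0 falls among 17 at 20 µM, and 8 rises and 6 falls at 30 µM. The 21 tested conjugating and related enzymes gave 9 rises and 1 fall at 20 µM, and 5 rises and 11 falls at 30 µM. Both are read against 17.2% of all genes rising and 16.9% falling at 20 µM, and 29.5% and 31.3% at 30 µM. With library size alone the P450s at 30 µM split into 7 and 7, and the conjugating and related enzymes into 1 and 15, again against 20.0% of all genes rising and 45.5% falling.

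**Figure D1:**
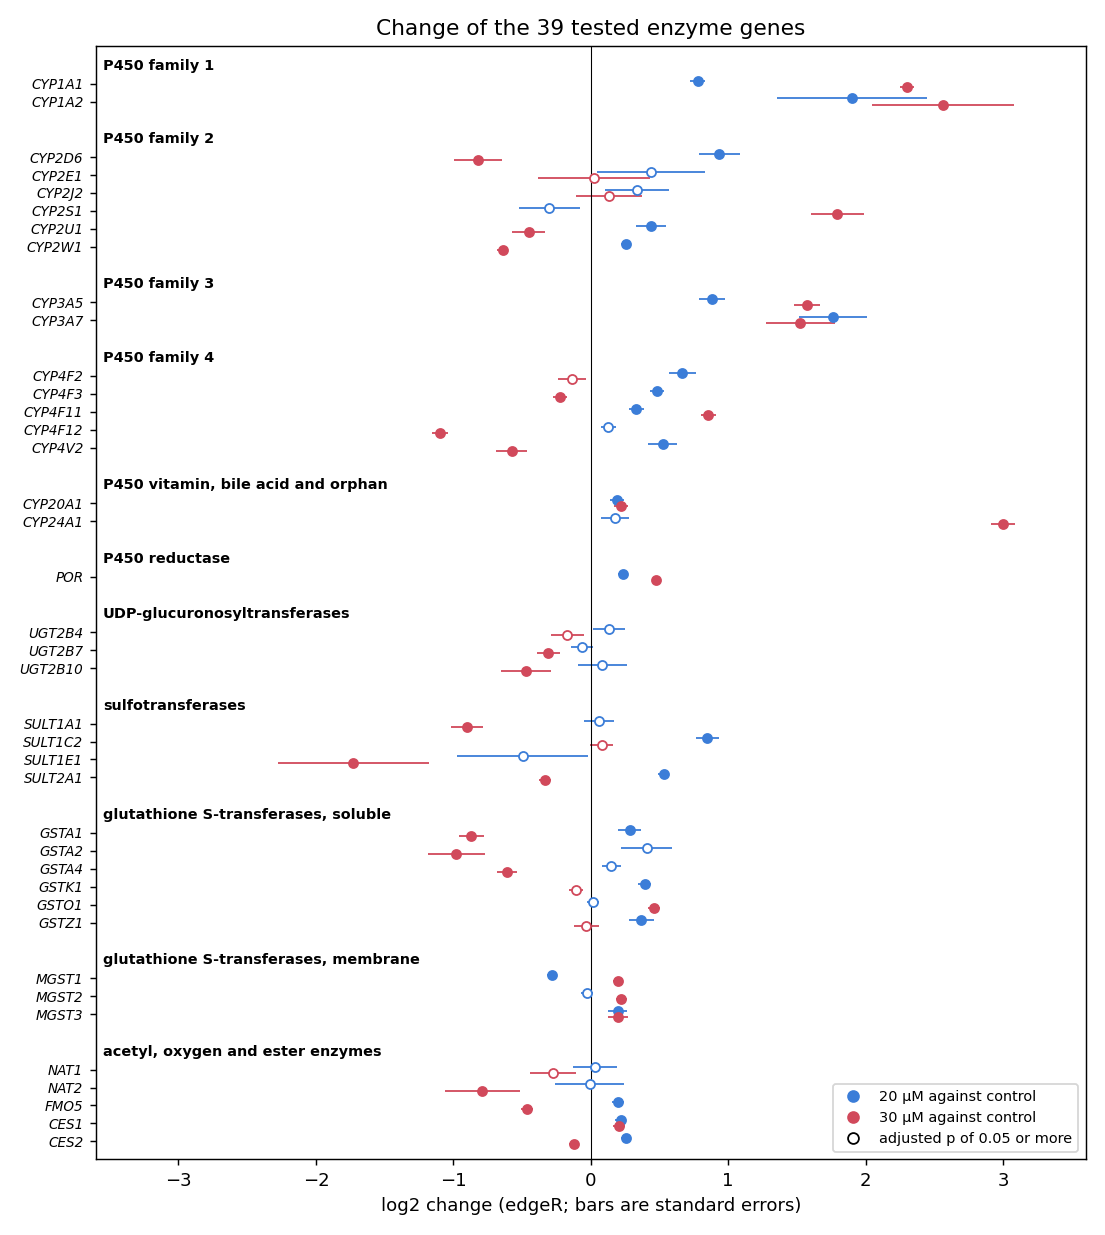
Log2 change of the 39 tested enzyme genes (x axis) by family (y axis), at 20 µM (blue) and 30 µM (red) against control, with standard errors as bars and open symbols for an adjusted p of 0.05 or more. Blue symbols lie mostly to the right of 0, with 22 rises and 1 fall (17.2% and 16.9% of all genes), while red symbols spread to both sides, from 3.00 for CYP24A1 to -1.73 for SULT1E1. SULT1E1 had at most 8 counts in a 30 µM library.

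CYP2D6, the main enzyme that clears eliglustat, was higher than control at 20 µM and lower than control at 30 µM. The gene lies at chr22:42126499-42130906 on the minus strand (GRCh38). Its level was 3.37, 3.07 and 3.38 CPM in the controls, 6.12, 6.97 and 5.75 CPM at 20 µM, and 1.76, 1.98 and 1.82 CPM at 30 µM. The 3 groups did not overlap, with 20 µM highest and 30 µM lowest. The log2 change was 0.94 ± 0.15 (SE) at 20 µM (1.91-fold higher, adjusted p = 7.84e-06) and -0.82 ± 0.17 at 30 µM (1.77-fold lower, adjusted p = 1.29e-04). Between the doses it was 3.38-fold lower at 30 µM, a log2 difference of -1.76 ± 0.17 (adjusted p = 5.44e-11). CYP2D7, a near-identical neighbouring copy with which reads can be exchanged, had 1.31 to 2.37 CPM in controls, 2.11 to 2.33 CPM at 20 µM and 1.03 to 2.02 CPM at 30 µM, and these ranges overlapped between control and either dose.

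The CYP3A genes on chromosome 7, the other enzymes that clear eliglustat, lie on the minus strand in the order CYP3A5, CYP3A7 and CYP3A4, separated by 4.93 kb and 21.8 kb. CYP3A genes are known targets of the pregnane X receptor (NR1I2), which binds pairs of 6-base sites such as AGGTCA and AGTTCA. The RefSeq sequences upstream of their starts (GRCh38.p14, minus strand) are shown because 2 of the members were above control at both doses. Between the doses these 2 differed. Each sequence is cut to bases outside annotated exons. Capitals mark AGGTCA and, as the reverse complement of AGTTCA, the letters TGAACT.

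CYP3A5, chr7:99680027-99680246: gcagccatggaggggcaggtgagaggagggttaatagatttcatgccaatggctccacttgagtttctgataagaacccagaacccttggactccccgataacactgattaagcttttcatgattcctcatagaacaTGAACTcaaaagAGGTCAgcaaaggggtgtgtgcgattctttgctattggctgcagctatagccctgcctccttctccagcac
CYP3A7, chr7:99735197-99735446: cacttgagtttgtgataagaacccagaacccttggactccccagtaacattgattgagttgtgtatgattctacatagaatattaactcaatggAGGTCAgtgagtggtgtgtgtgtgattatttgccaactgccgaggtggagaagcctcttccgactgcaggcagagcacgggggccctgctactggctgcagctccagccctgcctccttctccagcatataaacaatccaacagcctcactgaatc
CYP3A4, chr7:99784266-99784434: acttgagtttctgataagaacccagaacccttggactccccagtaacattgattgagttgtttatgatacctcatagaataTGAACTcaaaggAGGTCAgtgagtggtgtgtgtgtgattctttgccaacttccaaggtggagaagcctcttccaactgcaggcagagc

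All 3 windows held AGGTCA, which started at base -101 of CYP3A5, -156 of CYP3A7 and -157 of CYP3A4, counted back from the RefSeq start. On either strand, the 250 bases before the start held AGGTCA in 12.1% and AGTTCA in 8.8% of 35116 RefSeq promoters. The everted repeat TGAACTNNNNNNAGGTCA, which overlaps both sites, was found in 3 of these promoters (0.00854%), those of CYP3A5, CYP3A4 and ITGB1BP2, and not in that of CYP3A7. Of the 39 enzyme genes with a promoter entry, 11 held AGGTCA and 6 held AGTTCA. A match describes these letters and does not show binding.

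CYP3A5, an adult liver and gut enzyme, increased with each dose. Its level was 7.68, 6.49 and 8.01 CPM in the controls, 14.5, 12.4 and 14.2 CPM at 20 µM, and 22.0, 21.9 and 22.4 CPM at 30 µM. No library of one group overlapped another group. The log2 change was 0.88 ± 0.095 at 20 µM (adjusted p = 3.53e-09) and 1.57 ± 0.092 at 30 µM, or 2.98-fold (adjusted p = 2.16e-16), and 30 µM exceeded 20 µM by 1.61-fold (adjusted p = 2.49e-08).

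CYP3A7, the main CYP3A enzyme of fetal liver, reached a similar level at both doses. It had 0.610, 1.04 and 0.791 CPM in the controls, 2.79, 2.71 and 2.69 CPM at 20 µM, and 1.94, 2.72 and 2.27 CPM at 30 µM. All treated libraries were above all controls, and the doses overlapped. The rise was 3.40-fold at 20 µM (log2 1.76 ± 0.25, adjusted p = 6.04e-07) and 2.88-fold at 30 µM (log2 1.53 ± 0.25, adjusted p = 3.03e-06), and the difference between the doses was -0.24 ± 0.22 on the log2 scale (adjusted p = 0.374). CYP3A7 shares 39.6% of its exon bases with the readthrough gene CYP3A7-CYP3A51P, which had at most 0.0835 CPM. How reads in these shared bases were counted is uncertain.

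CYP3A4, the main drug-clearing P450 of adult liver, was near the limit of detection. It had 8, 2 and 3 counts in the controls, 3, 1 and 10 at 20 µM, and 3, 5 and 7 at 30 µM, and was not tested because of its low counts. The groups overlapped, and a fit with no low-count filter gave log2 changes of 0.18 ± 0.75 (adjusted p = 0.966) and 0.37 ± 0.75 (adjusted p = 0.78). A difference was therefore not detectable at this depth.

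POR, the reductase that passes electrons to the microsomal P450s, was above control at both doses. Its level was 289, 295 and 289.8 CPM in the controls, 334, 351 and 342 CPM at 20 µM, and 399.6, 403 and 414 CPM at 30 µM. The groups did not overlap, and their order followed the dose. The log2 change was 0.23 ± 0.032 at 20 µM (adjusted p = 4.45e-07) and 0.48 ± 0.032 at 30 µM, or 1.39-fold (adjusted p = 8.21e-15). The difference between the doses was 0.24 (adjusted p = 5.87e-08), but 0.050 with library size alone (adjusted p = 0.165).

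**Figure D2:**
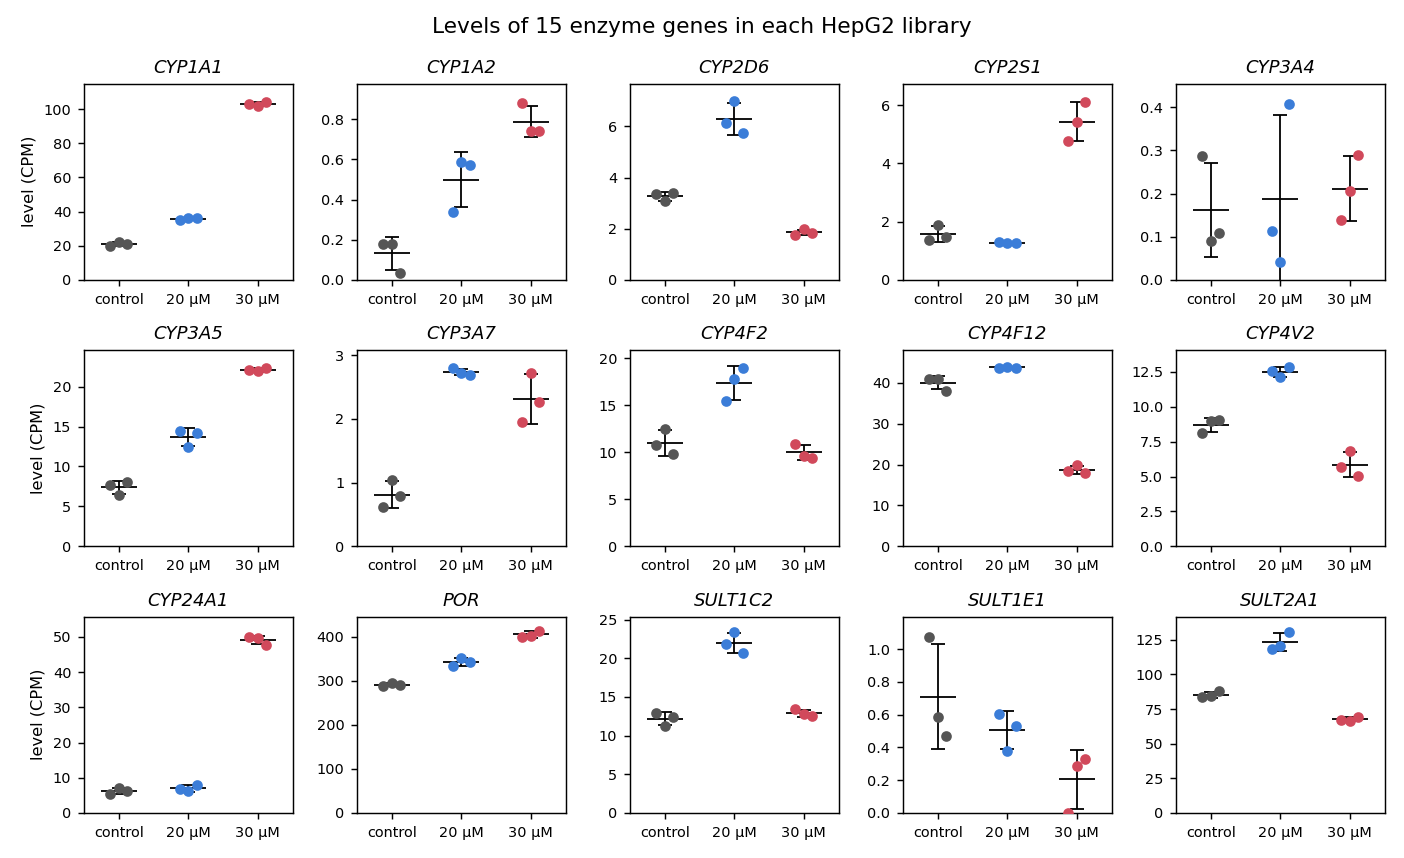
Level in CPM (y axis, from 0) of 15 enzyme genes in each of 3 control, 3 20 µM and 3 30 µM libraries (points), with the group mean and SD as bars that end at 0. CYP1A1, CYP3A5 and POR climb with dose, CYP2D6, CYP4V2 and SULT2A1 peak at 20 µM and lie below control at 30 µM, and CYP24A1 and CYP2S1 are high at 30 µM only.

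CYP1A1 and CYP1A2, which oxidise planar aromatic compounds and are classical AHR targets, both rose at each dose. They lie head to head on chromosome 15, 23.2 kb apart on opposite strands. AHR with its partner ARNT binds a core of GCGTG. The 28 bases around such a core upstream of the RefSeq start of CYP1A1 (GRCh38.p14, minus strand) are shown with the core in capitals. They are shown because this gene had one of the largest changes. In the GENCODE annotation used for positions, CYP1A1 spans chr15:74719542-74725610. By that annotation these 28 bases lie within the gene and not upstream of its start.

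CYP1A1, chr15:74725570-74725597: ccagggaaggagGCGTGgccacacgtac

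This core started at base -57 from the RefSeq start. GCGTG on either strand occurred in 32.2% of the 35116 promoters and in 8 of the 39 with an entry among the enzyme genes. CYP1A1 had 20.0, 22.0 and 20.8 CPM in the controls, 35.3, 36.3 and 36.2 CPM at 20 µM, and 103, 102 and 104 CPM at 30 µM. The 3 groups were far apart relative to their spread. The rise was 1.72-fold at 20 µM (log2 0.78 ± 0.054, adjusted p = 2.09e-13) and 4.93-fold at 30 µM (log2 2.30 ± 0.051, adjusted p = 6.42e-28), with a log2 difference of 1.52 between the doses (adjusted p = 2.51e-23).

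CYP1A2, which clears caffeine among other compounds, was expressed at a trace. It had 5, 4 and 1 counts in the controls, 9, 14 and 14 at 20 µM, and 19, 18 and 18 at 30 µM, or 0.0359 to 0.180 CPM, 0.340 to 0.585 CPM and 0.742 to 0.880 CPM. The groups did not overlap. The log2 change was 1.90 ± 0.55 at 20 µM (adjusted p = 0.00623) and 2.56 ± 0.52 at 30 µM (adjusted p = 6.76e-05), and 0.66 ± 0.42 between the doses (adjusted p = 0.188). Without control replicate 3, the change at 20 µM was 1.44 (adjusted p = 0.0584). With at most 5 counts in a control, CYP1A2 passed the low-count filter only through the treated libraries. Its rise is therefore not separate from that filter, and it is included in the counts of rises at both doses. CYP1B1, the other enzyme of the family, had at most 2 counts in any library and was not tested.

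CYP24A1, the mitochondrial enzyme that inactivates vitamin D, had the largest rise of the tested enzyme genes at 30 µM. It lies at chr20:54153449-54173973 on the minus strand. Its level was 5.45, 7.03 and 6.07 CPM in the controls, 6.87, 6.10 and 7.84 CPM at 20 µM, and 49.997, 49.7 and 47.7 CPM at 30 µM. Controls and 20 µM overlapped, and every 30 µM library was above all others. The rise was 7.99-fold at 30 µM against control (log2 3.00 ± 0.087, adjusted p = 1.08e-24) and 7.08-fold against 20 µM (log2 2.82 ± 0.086, adjusted p = 7.42e-24). At 20 µM the log2 change was 0.17 ± 0.10 (adjusted p = 0.207).

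CYP20A1, an orphan P450 without an established substrate, rose 1.14-fold at 20 µM (log2 0.19, adjusted p = 0.00246) and 1.16-fold at 30 µM (log2 0.22, adjusted p = 2.62e-04), but by 0.0094 at 30 µM with library size alone (adjusted p = 0.881). CYP26A1, which degrades retinoic acid, had at most 4 counts in a library. CYP39A1, a hydroxylase of the bile acid pathway, was at 0 counts in all 9 libraries.

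Among the other family 2 P450s, CYP2S1 rose at 30 µM while CYP2U1 and CYP2W1 rose at 20 µM and fell at 30 µM. CYP2S1, an extrahepatic enzyme of epithelia, had 1.36, 1.89 and 1.47 CPM in the controls, 1.28, 1.25 and 1.27 CPM at 20 µM, and 4.77, 5.40 and 6.11 CPM at 30 µM. Every 30 µM library was above all others, and the 20 µM libraries lay just below the controls. The rise at 30 µM was 3.47-fold (log2 1.79 ± 0.19, adjusted p = 7.40e-10), and the log2 change at 20 µM was -0.30 ± 0.22 (adjusted p = 0.325). CYP2W1, an enzyme known from fetal gut and colon tumours, was the most abundant of the listed P450s per exon length in the controls. Its level was 192 ± 3.39 CPM (SD, n = 3) in controls, 229 ± 9.29 CPM at 20 µM and 123 ± 4.32 CPM at 30 µM, a log2 change of 0.25 (adjusted p = 1.30e-06) and of -0.64 (adjusted p = 3.21e-16). CYP2U1, a fatty acid hydroxylase, changed by 0.44 (adjusted p = 0.00203) and -0.45 (adjusted p = 0.0014).

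CYP2E1, the ethanol-oxidising P450, and CYP2J2, an arachidonic acid epoxygenase, passed the test in no comparison. CYP2E1 averaged 0.672 CPM in controls, 0.904 CPM at 20 µM and 0.677 CPM at 30 µM, with overlapping libraries, and shares 21.5% of its exon bases with SYCE1 on the opposite strand. CYP2J2 averaged 1.46, 1.84 and 1.60 CPM in the same order. CYP2B6, CYP2C8, CYP2C19 and CYP2R1 were not tested. CYP2C8, which clears paclitaxel, had 7 to 11 counts in controls, 5 to 7 at 20 µM and 2 to 6 at 30 µM. CYP2R1, the vitamin D 25-hydroxylase, had 12 counts in 20 µM replicate 3 and at most 4 in every other library. CYP2B6 and CYP2C19 had at most 2 counts in any library.

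The CYP4F genes of chromosome 19 hydroxylate long-chain fatty acids, leukotrienes and vitamin K, and neighbours there moved in different directions at 30 µM. CYP4F2, the vitamin K1 hydroxylase, had 10.7, 12.4 and 9.77 CPM in the controls, 15.4, 17.7 and 18.9 CPM at 20 µM, and 10.9, 9.61 and 9.41 CPM at 30 µM. The 20 µM libraries were above all others, and controls overlapped 30 µM. The rise at 20 µM was 1.59-fold (log2 0.67 ± 0.099, adjusted p = 1.71e-06). At 30 µM the log2 change was -0.14 ± 0.10 (adjusted p = 0.267), or -0.35 with library size alone (adjusted p = 0.00413).

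CYP4F12, which hydroxylates arachidonic acid and some antihistamines, had 41.0, 41.1 and 38.1 CPM in the controls, 43.7, 44.0 and 43.6 CPM at 20 µM, and 18.3, 19.8 and 17.9 CPM at 30 µM. The 30 µM libraries were far below the others. The level was 2.14-fold lower at 30 µM (log2 -1.10 ± 0.061, adjusted p = 5.22e-17), and the log2 change at 20 µM was 0.13 ± 0.056 (adjusted p = 0.0751). CYP4F11, 14.2 kb from CYP4F2, rose at both doses, from 38.7 ± 0.889 CPM to 48.7 ± 2.89 and 70.0 ± 3.90 CPM (log2 0.33 and 0.86, adjusted p = 8.49e-06 and 1.15e-15). CYP4F3, the leukotriene B4 hydroxylase, 9.93 kb from CYP4F12, rose by 0.48 at 20 µM (adjusted p = 2.72e-09) and fell by 0.22 at 30 µM (adjusted p = 4.28e-04). Because these genes are similar in sequence, the sharing of reads among them is uncertain.

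CYP4V2, a fatty acid hydroxylase on chromosome 4, had 8.14, 8.97 and 9.02 CPM in the controls, 12.6, 12.1 and 12.8 CPM at 20 µM, and 5.65, 6.81 and 5.04 CPM at 30 µM. The 3 groups did not overlap. It rose 1.44-fold at 20 µM (log2 0.52 ± 0.11, adjusted p = 1.90e-04) and was 1.49-fold lower at 30 µM (log2 -0.58 ± 0.12, adjusted p = 5.98e-05). In all, 4 of the 5 family 4 genes rose at 20 µM and 0 fell (17.2% and 16.9% of all genes), and at 30 µM 1 rose and 3 fell (29.5% and 31.3% of all genes).

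**Figure D3:**
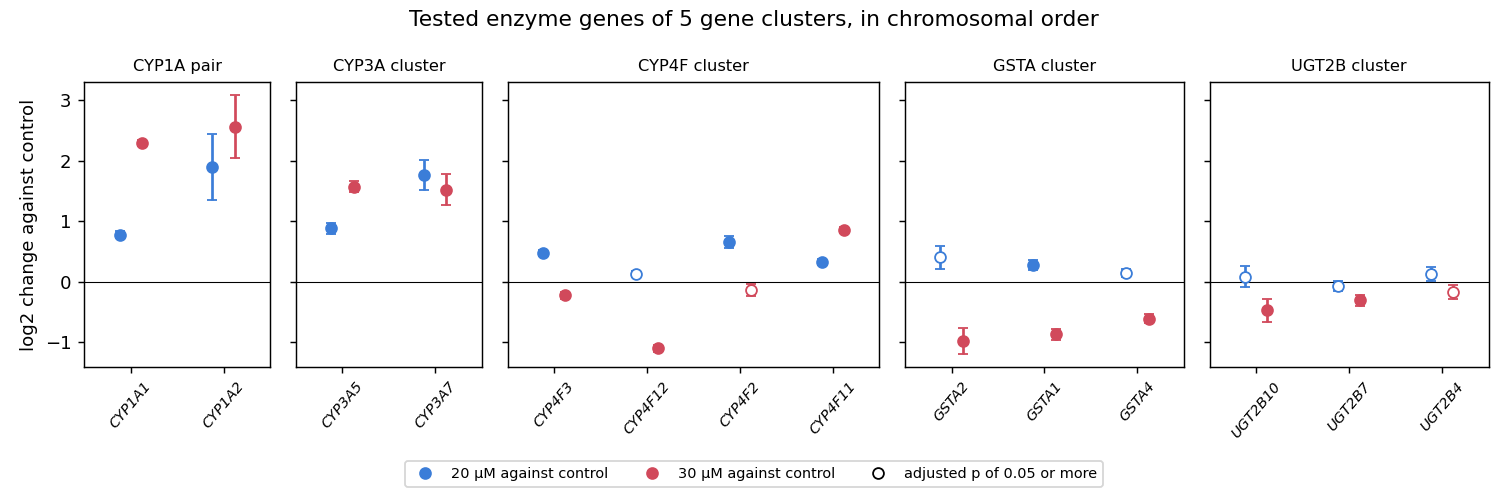
Log2 change against control (y axis) with standard errors for the tested genes of 5 gene clusters, in chromosomal order (x axis), at 20 µM (blue) and 30 µM (red), with open symbols for an adjusted p of 0.05 or more. Both CYP1A and both CYP3A genes lie above 0 at each dose, the CYP4F neighbours spread from -1.10 to 0.86 at 30 µM, and the 3 GSTA genes lie below 0 at 30 µM.

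The UDP-glucuronosyltransferases showed 0 of 3 tested genes past the test at 20 µM, and 0 rises and 2 falls at 30 µM. Among all genes 34.2% were called at 20 µM and 60.8% at 30 µM, where 31.3% fell, so 2 of 3 called is near that share. UGT2B7, which conjugates morphine and many carboxylic acid drugs, averaged 18.6 ± 2.19 CPM in controls, 17.7 ± 0.120 at 20 µM and 15.0 ± 0.392 at 30 µM, where it fell by 0.31 on the log2 scale (adjusted p = 0.00184). UGT2B10, which conjugates tertiary amines and nicotine, fell by 0.47 at 30 µM (adjusted p = 0.0273), a call that DESeq2 did not give (adjusted p = 0.0714) and that was lost without control replicate 3 (-0.36, adjusted p = 0.152), 30 µM replicate 1 (adjusted p = 0.0599) or 30 µM replicate 3 (adjusted p = 0.0947). UGT2B4, a bile acid conjugating enzyme, was -0.17 ± 0.12 at 30 µM against control (adjusted p = 0.219) and fell by 0.31 against 20 µM (adjusted p = 0.0268), but not with DESeq2 (adjusted p = 0.0731) or without 20 µM replicate 3 (adjusted p = 0.142), 30 µM replicate 1 (adjusted p = 0.136) or 30 µM replicate 2 (adjusted p = 0.0579). These UGT2B genes are close in sequence, so reads may be split among them.

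UGT1A1, the enzyme that conjugates bilirubin, and UGT1A6, which conjugates planar phenols, had too few counts for the test. UGT1A1 had 2, 4 and 2 counts in the controls, 4, 7 and 5 at 20 µM, and 9, 19 and 15 at 30 µM. UGT1A6 had 2, 0 and 4, then 4, 5 and 3, then 10, 16 and 7. For both genes every 30 µM library was above every control. A fit with no low-count filter gave log2 changes at 30 µM of 2.51 ± 0.64 (adjusted p = 3.58e-04) and 2.56 ± 0.73 (adjusted p = 0.00194). The UGT1A genes are transcripts of a single locus with common exons, and UGT1A1 shares 36.9% of its exon bases with UGT1A6, and how reads in these bases were counted is uncertain. UGT2B15, which conjugates androgens, was at 0 counts in every library.

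Of the 4 sulfotransferases, 2 rose and 0 fell at 20 µM, and 0 rose and 3 fell at 30 µM. The shares of all genes that rose and fell were 17.2% and 16.9%, then 29.5% and 31.3%. SULT2A1, which sulfates dehydroepiandrosterone and bile acids and is the most abundant of the 4 per exon length, had 83.9, 84.4 and 87.7 CPM in the controls, 119, 121 and 130.5 CPM at 20 µM, and 66.8, 66.6 and 69.5 CPM at 30 µM. The groups did not overlap, with 20 µM highest and 30 µM lowest. The rise at 20 µM was 1.44-fold (log2 0.53 ± 0.043, adjusted p = 7.48e-12), and the level at 30 µM was 1.26-fold lower (log2 -0.34 ± 0.044, adjusted p = 5.26e-08).

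SULT1C2, which sulfates small phenols, had 12.9, 11.3 and 12.4 CPM in the controls, 21.9, 23.3 and 20.7 CPM at 20 µM, and 13.4, 12.7 and 12.6 CPM at 30 µM. Only the 20 µM libraries stood apart, and controls overlapped 30 µM. The rise at 20 µM was 1.80-fold (log2 0.85 ± 0.081, adjusted p = 3.39e-10). At 30 µM the log2 change was 0.079 ± 0.086 (adjusted p = 0.442), and -0.13 with library size alone (adjusted p = 0.188).

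SULT1E1, the estrogen sulfotransferase, had 30, 13 and 13 counts in the controls, 16, 9 and 13 at 20 µM, and 0, 7 and 8 at 30 µM, or 1.08, 0.586 and 0.467 CPM, then 0.604, 0.376 and 0.531 CPM, then 0, 0.289 and 0.330 CPM. Controls and 20 µM overlapped, and the 30 µM libraries lay below both. The log2 change at 30 µM was -1.73 ± 0.55 (adjusted p = 0.00763), and the call was lost without control replicate 1 (-1.28, adjusted p = 0.0858) or without 30 µM replicate 1 (-1.19, adjusted p = 0.0505). With at most 8 counts in a 30 µM library, SULT1E1 passed the low-count filter only through the control and 20 µM libraries. Its fall is therefore not separate from that filter, and it is included in the counts of falls at 30 µM. SULT1A1, a phenol sulfotransferase, averaged 11.0 ± 0.719 CPM in controls, 11.5 ± 1.05 at 20 µM and 5.90 ± 0.993 at 30 µM, where it fell by 0.90 (adjusted p = 4.58e-08). Its near copy SULT1A2 averaged 20.6, 19.3 and 14.9 CPM, so reads may be divided between them.

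The soluble glutathione S-transferases split by member. The alpha class enzymes GSTA1, GSTA2 and GSTA4, which conjugate drugs, steroids and lipid peroxidation products and lie in a cluster on chromosome 6, all fell at 30 µM. GSTA1 averaged 17.1 ± 1.19 CPM in controls, 20.9 ± 2.18 at 20 µM and 9.36 ± 0.453 at 30 µM, a fall of 0.87 on the log2 scale (adjusted p = 4.65e-10). The rise of GSTA1 at 20 µM was 0.28 (adjusted p = 0.008) and was lost without control replicate 1 (0.23, adjusted p = 0.0648), without 20 µM replicate 3 (0.20, adjusted p = 0.0984) and without the 3 libraries together (0.14, adjusted p = 0.279). GSTA2, a near copy of GSTA1, fell by 0.98 at 30 µM (adjusted p = 1.34e-04) and GSTA4 by 0.61 (adjusted p = 4.49e-09). GSTO1, an omega class enzyme that reduces dehydroascorbate and arsenic compounds, was the single soluble member that rose at 30 µM, from 138 ± 11.0 to 189 ± 5.21 CPM (log2 0.46, adjusted p = 4.81e-10). GSTK1, a peroxisomal and mitochondrial enzyme, and GSTZ1, an enzyme of tyrosine breakdown, rose at 20 µM by 0.39 (adjusted p = 5.69e-08) and 0.37 (adjusted p = 0.00167), and at 30 µM were at -0.11 (adjusted p = 0.0625) and -0.031 (adjusted p = 0.799).

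The 3 membrane-bound transferases showed small changes. MGST1, an abundant glutathione transferase and peroxidase of the endoplasmic reticulum and outer mitochondrial membrane, was the only enzyme gene that fell at 20 µM, from 265 ± 1.99 to 217 ± 9.67 CPM (log2 -0.28, adjusted p = 7.47e-08). At 30 µM it reached 303 ± 8.15 CPM, a rise of 0.20 (adjusted p = 1.06e-05) that became -0.013 with library size alone (adjusted p = 0.759). MGST2, a leukotriene C4 forming enzyme, rose by 0.22 at 30 µM (adjusted p = 2.24e-05), and by 0.014 with library size alone (adjusted p = 0.79). MGST3 rose by 0.19 (adjusted p = 0.03) and 0.20 (adjusted p = 0.0151). The call at 20 µM was lost with DESeq2 (adjusted p = 0.0517) and without control replicate 3 (0.155), 20 µM replicate 1 (0.0502) or 20 µM replicate 3 (0.128, all adjusted p). At 30 µM it was lost with upper-quartile scaling (adjusted p = 0.0906) and without control replicate 3 (0.0948), 30 µM replicate 2 (0.0673) or 30 µM replicate 3 (0.0683, all adjusted p), and with library size alone the change was -0.010 (adjusted p = 0.909).

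Of the 5 acetylating, oxygenating and ester-cleaving enzymes, 3 rose and 0 fell at 20 µM (17.2% and 16.9% of all genes), and 1 rose and 3 fell at 30 µM (29.5% and 31.3% of all genes). FMO5, a flavin monooxygenase of liver, averaged 81.8 ± 2.57 CPM in controls, 94.0 ± 2.71 at 20 µM (log2 0.20, adjusted p = 3.45e-04) and 59.4 ± 2.07 at 30 µM, where it fell by 0.46 (adjusted p = 7.18e-11). CES2, the carboxylesterase that activates irinotecan, rose by 0.26 at 20 µM (adjusted p = 7.75e-07) and fell by 0.12 at 30 µM (adjusted p = 0.00472). CES1, the main hepatic carboxylesterase, rose by 0.22 (adjusted p = 1.07e-04) and 0.21 (adjusted p = 9.15e-05), and with library size alone the second change was -0.0041 (adjusted p = 0.94). NAT2, which acetylates isoniazid, had 1.75 CPM in controls, 1.73 at 20 µM and 1.01 at 30 µM on average, a fall of 0.79 at 30 µM (adjusted p = 0.0127) that was lost without control replicate 1 (adjusted p = 0.0528) or 30 µM replicate 1 (adjusted p = 0.0577). NAT1, its widely expressed paralogue, passed the test in no comparison.

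Levels between genes were compared as CPM per kb of merged exons. In the controls the order began with GSTO1 at 81.4 ± 6.48, CYP2W1 at 69.2 ± 1.22, POR at 47.7 ± 0.547, SULT2A1 at 43.0 ± 1.02 and MGST1 at 35.6 ± 0.267 CPM per kb. Each of these neighbours lay further apart than their SDs, while CES2 (29.7 ± 0.850) and MGST2 (27.8 ± 0.886), next in order, and CES1 (27.1 ± 0.808) were close together. The P450s best known from adult liver stood far lower: CYP2D6 had 1.34, CYP3A5 1.09, CYP2C8 0.131, CYP2E1 0.0698, CYP3A4 0.0515 and CYP1A2 0.0483 CPM per kb. At 30 µM, CYP1A1 went from 6.10 to 30.0 CPM per kb, or from the 18th to the 8th place among the 50 genes. CYP24A1 went from 1.56 to 12.4 CPM per kb, or from the 24th to the 12th place. With the length of the longest transcript in place of merged exons, POR stood at 115 and MGST1 at 123 CPM per kb in controls, so the order near the top depends on the length used.

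**Figure D4:**
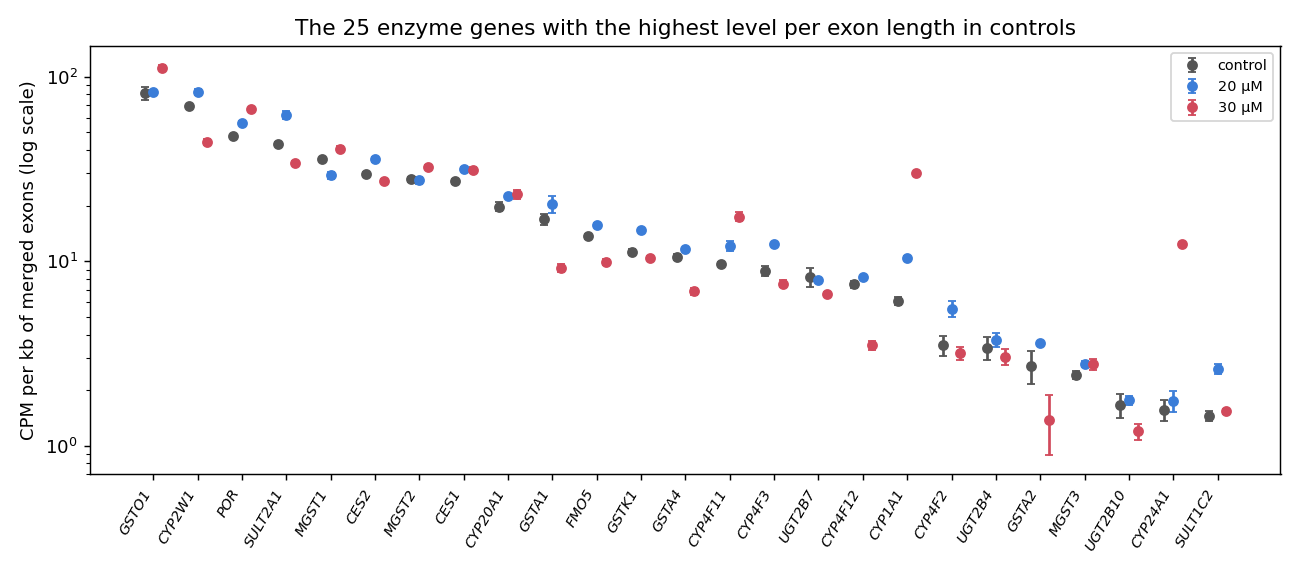
Mean level with SD (n = 3) in CPM per kb of merged exons (y axis, log scale) of the 25 enzyme genes highest in controls, in order of their control level (x axis), for control (black), 20 µM (blue) and 30 µM (red). Most genes stay near their control level, whereas CYP1A1 (30.0) and CYP24A1 (12.4) at 30 µM lie well above the genes around them.

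Genes that act beside these enzymes were read from 7 lists chosen from textbook knowledge. Their counts are read against the shares of all genes that rose and fell, 17.2% and 16.9% at 20 µM, 29.5% and 31.3% at 30 µM, and 20.0% and 45.5% at 30 µM with library size alone. Among 29 other P450s, 10 were tested, of which 4 rose and 0 fell at 20 µM, and 3 rose and 1 fell at 30 µM (2 and 4 with library size alone). CYP51A1, the sterol demethylase of cholesterol synthesis, rose 1.98-fold at 30 µM (log2 0.98, adjusted p = 1.08e-05), and CYP19A1, the aromatase, 1.74-fold (log2 0.80, adjusted p = 4.33e-08). CYP11A1, the side-chain cleavage enzyme of steroid synthesis, fell by 0.83 (adjusted p = 0.00338). Of 20 tested genes for P450 electron donors and heme supply, 3 rose and 5 fell at 20 µM (40.0% called, against 34.2% of all genes), and 6 rose and 10 fell at 30 µM (80.0%, against 60.8%; 1 and 13 with library size alone). FDXR, which feeds electrons to the mitochondrial P450s including CYP24A1, fell by 0.55 at 20 µM (adjusted p = 2.49e-11) and by 1.08 at 30 µM (adjusted p = 1.52e-19). FDX1 of the same list, outside the rule for named genes, was at 0.0076 at 20 µM (adjusted p = 0.953). It rose by 0.27 at 30 µM (adjusted p = 7.75e-04). CYB5A, a helper electron donor of microsomal P450s, fell at 30 µM by 0.58 (adjusted p = 2.02e-13), and HMOX2, a heme oxygenase, rose by 0.51 (adjusted p = 1.51e-09).

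The other conjugating enzymes, 14 of 42 matched genes tested, gave 3 rises and 1 fall at 20 µM, and 1 rise and 8 falls at 30 µM (1 and 10 with library size alone). The rise at 30 µM was that of SULT1C4 (log2 1.45, adjusted p = 9.40e-08), and the mu class transferases GSTM2 and GSTM1 fell by 1.31 and 1.17 (adjusted p = 5.20e-06 and 4.00e-04), as did GSTCD by 1.01 (adjusted p = 2.70e-15). Cofactor supply gave 3 rises and 6 falls among 20 genes at 20 µM, and 7 rises and 11 falls at 30 µM (6 and 13 with library size alone). GCLC and GCLM, the subunits of the enzyme that limits glutathione synthesis, rose at 30 µM by 2.42 and 1.74 (adjusted p = 1.40e-32 and 1.21e-22), and at 20 µM were at 0.38 (adjusted p = 2.82e-10) and -0.11 (adjusted p = 0.0976). MAT1A, which makes the methyl donor S-adenosylmethionine, fell by 1.00 at 30 µM (adjusted p = 1.16e-22), and ACSS2, which makes acetyl-CoA from acetate, rose by 0.73 (adjusted p = 1.08e-18). Other oxidising, reducing and hydrolysing enzymes gave 7 rises and 8 falls among 30 at 20 µM, and 7 rises and 13 falls at 30 µM (66.7% called, against 60.8% of all genes; 5 and 19 with library size alone). The aldo-keto reductases AKR1C1, AKR1B10 and AKR1C2 rose at 30 µM by 1.70, 1.63 and 1.54 (adjusted p = 1.59e-27, 4.44e-27 and 3.82e-20), and AKR1B10 fell by 0.14 at 20 µM (adjusted p = 0.0046).

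Receptors and their partners gave 12 rises and 1 fall among 22 tested genes at 20 µM, and 10 rises and 7 falls at 30 µM (7 and 8 with library size alone). AHR, the receptor upstream of CYP1A1 and CYP1A2, rose by 0.42 at 20 µM (adjusted p = 2.65e-07) and by 1.44 at 30 µM (adjusted p = 1.17e-21), from 27.3 ± 0.904 to 36.6 ± 1.40 and 74.3 ± 3.55 CPM. NR1H4, the bile acid receptor, fell by 0.39 (adjusted p = 1.21e-09) and 1.71 (adjusted p = 1.82e-26). NFE2L2, the regulator of many glutathione genes, was at 0.057 (adjusted p = 0.206) and rose by 0.92 at 30 µM (adjusted p = 6.07e-22), and NR3C1, the glucocorticoid receptor, was at 0.12 (adjusted p = 0.126) and rose by 0.76 at 30 µM (adjusted p = 4.23e-13). Outside the rule for named genes, and chosen after their values were seen, NR1I2 rose by 0.33 at 20 µM (adjusted p = 9.02e-04) and was at 0.079 at 30 µM (adjusted p = 0.397), and the vitamin D receptor VDR was at -0.28 (adjusted p = 0.0896) and 0.25 (adjusted p = 0.0809). Between the doses, NR1I2 was lower at 30 µM by 0.25 (adjusted p = 0.00634) and VDR was higher by 0.54 (adjusted p = 5.60e-04). Of 7 tested AHR targets outside the 50 genes, 3 rose and 1 fell at 20 µM, and 5 rose and 2 fell at 30 µM (3 and 2 with library size alone), and 6 of that list's 11 genes also stand in another list. ALDH3A1, an aldehyde dehydrogenase, rose by 2.15 ± 0.36 and 2.35 ± 0.36 (adjusted p = 1.25e-05 and 8.08e-07). It was a trace in controls, at 0.350 ± 0.166 CPM, with 1.61 ± 0.746 CPM at 20 µM and 1.84 ± 0.135 CPM at 30 µM. Only the treated libraries brought its mean to the 1 CPM needed to be named. TIPARP, a feedback inhibitor of AHR, rose by 0.23 and 0.35 (adjusted p = 0.00463 and 1.35e-05, the second becoming 0.14 with library size alone, adjusted p = 0.059). EREG, a growth factor, was at 0.26 (adjusted p = 0.0788) and rose by 2.85 at 30 µM (adjusted p = 1.91e-22).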

How the data were processed

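The authors deposited whole-number read counts per gene, 1 file per library. Per the submitters' processing notes, FastQC, STAR 2.7.10a and HTSeq were used with the build hg38. Whether counting used strand, and with which annotation release, is not given in the sources used here. Genes with near copies or with a partner on the other strand are therefore uncertain. Labels conflict on polyA RNA against ribosomal depletion. HTSeq's closing totals were left out of library sizes, and they held 40.6% to 44.0% of all records. Any pair of libraries of a group differed by a chi-square of 2.10 or more per gene, above sampling noise.

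The quasi-likelihood test of edgeR 4.0.16 (R 4.3.3) was run on genes that passed filterByExpr, with TMM factors, robust estimation, all 9 libraries and 6 residual degrees of freedom, and with Benjamini-Hochberg adjustment over 17623 genes at 0.05. The SE is the size of the log2 change divided by the root of its F statistic. A count of 0 allows up to 3 counts, or 0.108 to 0.139 CPM, which covers counting error only. Positions and lengths are from GENCODE 29 (GRCh38), promoters from RefSeq, with an entry for 39 of the 50 genes.

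The 50 genes and all lists were chosen with earlier results of these data known. Values in every library are given for CYP2D6, CYP3A4, CYP3A5, CYP3A7, POR and each called gene with a log2 change of at least 1 at 30 µM or 0.5 at 20 µM, in either direction; from each list up to 4 genes called at 30 µM, with a mean of at least 1 CPM and the largest changes, are named. An item taken by this rule is not reported here. Alternatives were other scalings, DESeq2 1.42.0, limma 3.58.1 voom, other filters, a replicate block, a fold threshold and libraries left out.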

Additional observations from a re-analysis of the deposited data

How the results depend on the processing

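Over 93 results and 1845 alternatives, 1794 kept direction and side of the threshold, and 22 results changed their call under at least 1. A further requirement of at least 1 log2 unit left 2 genes (2 rose, 0 fell) at 20 µM, 8 (6 rose, 2 fell) at 30 µM and 8 (3 higher, 5 lower) between the doses. The share of all genes past this threshold was not computed, so these counts are not read as a result about the enzyme genes. They include the trace gene CYP1A2 among the rises at both doses and SULT1E1 among the falls at 30 µM. Library size alone left 9 rises at 30 µM, where 20.0% of all genes rose. It turned the sign of CES1 (-0.0041), MGST1 (-0.013), MGST3 (-0.010) and SULT1C2 (-0.13) there. Without control 1, 20 µM 3 and 30 µM 3, CYP24A1 at 20 µM was -0.0065 and passed the test in neither fit. Leaving out each library in turn gave 21 to 23 genes past the test at 20 µM (20 to 22 rose, 1 to 1 fell), 28 to 31 at 30 µM (13 to 14 rose, 14 to 17 fell) and 28 to 31 between the doses (9 to 9 higher, 19 to 22 lower). Of the 18052 to 18223 genes tested in those fits, 2616 to 3101 rose and 2603 to 3034 fell at 20 µM. At 30 µM 4929 to 5275 rose and 5132 to 5605 fell. Between the doses 4636 to 5003 were higher and 4640 to 5110 lower. DESeq2 gave no adjusted p for CYP1A2 at 20 µM.

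Replicate numbers are shared across groups, but not every same-numbered pair deviated together. Correlations over the 9 such pairs ran from -0.20 to 0.35, the highest for the third libraries of 20 and 30 µM, so the numbers were not taken to pair the libraries. With the replicate block, 23, 31 and 30 genes passed in the 3 comparisons (22 rose and 1 fell, 14 and 17, 9 and 21), the same counts as without it. Of all 17623 genes tested, 2997 rose and 2955 fell, 5155 and 5480, and 4921 and 5034 in that fit. Depth limits the 11 untested genes, and a trace gene such as CYP1A2 or SULT1E1 has an SE of about 0.5 log2 units.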

Other observations

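The summed level of all 50 enzyme genes was 1797 to 1836 CPM in the controls, 2038 to 2106 CPM at 20 µM and 2045 to 2059 CPM at 30 µM. The 25 P450s summed to 443 to 457 CPM in controls, 553 to 579 CPM at 20 µM and 522 to 542 CPM at 30 µM, and by family their makeup differed. Family 2, which CYP2W1 dominates, summed to 203 to 209, 239.8 to 257 and 134 to 142 CPM in that order, and family 1 to 20.2 to 22.2, 35.6 to 37.0 and 103 to 105 CPM. Family 3 summed to 7.62 to 8.91, 15.2 to 17.4 and 24.1 to 24.9 CPM. Sulfotransferases summed to 107 to 112, 153 to 162 and 84.9 to 88.5 CPM, and membrane glutathione transferases to 371 to 376, 313 to 339 and 425 to 437 CPM. These sums use TMM factors, are set by their most abundant genes and carry no test. Library size alone shifted the median of all genes at 30 µM against control by -0.21 on the log2 scale. How the sums at 30 µM stand to the controls therefore depends on the scaling.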
